A study of Homo sapiens with 9 samples.

Results

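The genes described here are 49 cell cycle and DNA replication genes, a list that holds 24 genes of the G1/S transition and of DNA synthesis and 25 genes of G2 and mitosis. Each gene was taken as the probe set annotated to its symbol with the highest mean signal over all 9 arrays. All 49 were on the array, out of 19775 genes named there, and all 49 were among the 12594 genes bright enough to be tested. The list was fixed by name, not by values of these samples, but it was chosen with earlier results of these data known.

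RNA came from 3 human cell lines of breast epithelium, all of the MCF-10A series, which descend from a non-tumorigenic breast line and carry activated HRAS. By the labels MII (MCF-10AT1Kcl2) stands for carcinoma in situ, MIII (MCF-10A1h) for carcinoma and MIV (MCF-10A1a) for metastatic carcinoma, so the 3 lines form a series of stages. The study's design text gives the loss of genes in the metastatic line as its purpose. All lines were grown in the same DMEM/F12 medium with horse serum, insulin, cholera toxin, epidermal growth factor, hydrocortisone and antibiotics, with no treatment, and each line was measured on 3 Affymetrix arrays. Each line is a cell line of its own, so a difference between lines stands for a difference between these lines and not between patients' tumours, and the density of the cultures at harvest is not given in the labels. The arrays of a line are called biological replicates, but separate cultures are not stated, so the p-values cover only the variation among these arrays, possibly technical.

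Cells pass from G1 into S phase when cyclin D with CDK4 or CDK6, and then cyclin E with CDK2, phosphorylate the RB protein and release E2F factors, which switch on genes for replication and for deoxynucleotide supply. Genes of G2 and mitosis are switched on later by B-Myb and FOXM1 with the MuvB complex, which binds promoters at a short element called CHR, and their products drive CDK1 activation, spindle assembly and chromosome segregation. In breast cells the RNA levels of both sets are widely used as readouts of proliferation.

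The values are MAS5 signals, and every array has the same trimmed mean. The median signal over all probe sets lay between 69.0 and 71.7 on the MII arrays, between 72.1 and 74.9 on the MIII arrays and between 64.7 and 65.2 on the MIV arrays. Arrays of a line correlated at 0.974 to 0.977 over all probe sets on the log2 scale, and arrays of different lines at 0.947 to 0.961. A hybridisation control, the 3' probe set of bioB, read 3169.8 on MIV replicate 3 and between 965 and 1547 on the other arrays, and no 2 arrays held identical values. The epithelial markers KRT5, KRT7, KRT8 and KRT18 were bright in all 3 lines, while KRT14 averaged 2155 in MII, 957 in MIII and 137 in MIV, and KRT19 was too dim to be tested. Mean signals of the members over the 9 arrays started at 427 (E2F1), with a median of 3454, against a median of 738 over all genes tested.

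Changes are given as differences of log2(signal + 18.3) with their standard errors (SE), and are called higher or lower where limma's Benjamini-Hochberg adjusted p over all 12594 genes was under 0.05. Genes that in addition changed by at least 2-fold are counted separately. RNA per cell and the number of cells in a cycle phase cannot be told apart in bulk RNA. The 3 comparisons share arrays, each line entering 2 of them, so their values are set side by side and not as independent results.

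In MIII versus MII the genes of G2 and mitosis were higher, while the G1/S genes split. Of the 25 G2/M genes 18 rose and 0 fell (0 also at an unadjusted limma p under 0.05), with a median log2 change of 0.40. Of the 24 G1/S genes 10 rose and 5 fell, with a median of 0.04. Without MIII replicate 2, 3 of all 49 genes fell. Over all genes tested 22.9% rose and 24.3% fell, with a median of -0.02, and among the 7905 genes at least as bright as the dimmest member 25.8% rose and 29.7% fell. The arrays of the lines did not overlap for 36 of the 49 genes, against a background of 55.3%. FOXM1 and KIF20A were the members past 2-fold, 2 of 49, where 11.7% of all genes were.

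In MIV versus MII the G2/M genes were again higher, by less, and the G1/S genes were more often lower than higher. Of the G2/M genes 15 of 25 rose and 0 fell (0 also at an unadjusted limma p under 0.05), with a median of 0.21, but TOP2A fell after quantile or cyclic loess normalization on the probe set used. Of the G1/S genes 6 of 24 rose and 10 fell, with a median of -0.06, which was -0.14 with the average of each gene's probe sets and -0.33 with probe sets that carry no suffix. Over all genes 20.0% rose and 22.2% fell, with a median of -0.03, and among the bright genes 2055 rose and 1977 fell (26% and 25%). The arrays did not overlap for 36 of the 49 genes, against a background of 50.7%. No member reached 2-fold at any p-value, where 8.14% of all genes were called at 2-fold by limma, but cyclin E2 (CCNE2) lay just short of it, at -0.95 ± 0.09, and passed with a value of -1.02 when MIV replicate 2 was left out.

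In MIV versus MIII most members that changed were lower, in both phases. Of the G1/S genes 13 of 24 fell and 0 rose, with 2 higher at an unadjusted limma p under 0.05, and the median was -0.20. Of the G2/M genes 13 of 25 fell and 4 rose, with a median of -0.15. Over all genes 25.3% rose and 26.6% fell, with a median of -0.01, and among the bright genes 32.8% rose and 28.4% fell. The arrays did not overlap for 32 of the 49 genes, against a background of 58.8%. No member reached 2-fold at any p-value, where 12.7% of all genes were called at 2-fold by limma. Without the members on chromosomes with a shifted median, described further on, the G1/S median was -0.083 with 10 of 21 genes lower and 0 higher. Of the G2/M genes 12 of 21 fell and 2 rose, with a median of -0.19.

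**Figure D1:**
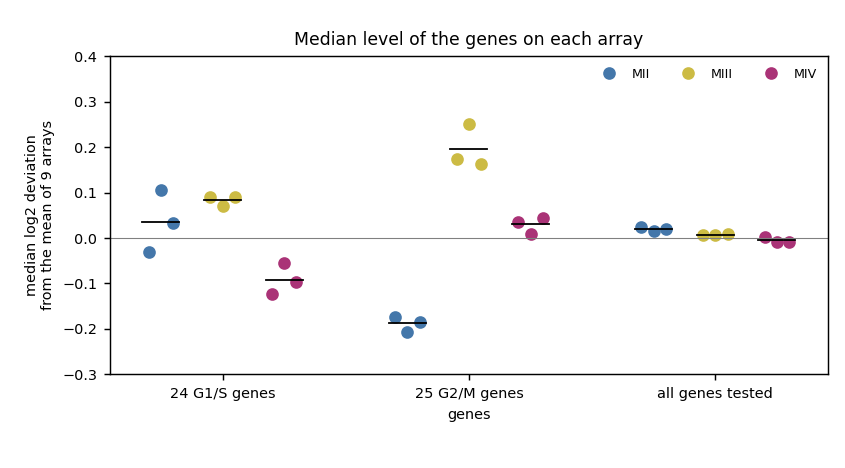
Median, over the genes of a group, of each gene's log2(signal + 18.3) minus its mean over 9 arrays, a point per array and bars at the mean of 3 arrays. For the 25 G2/M genes the MII arrays lie at -0.17, -0.21 and -0.18, the MIII arrays at 0.17, 0.25 and 0.16 and the MIV arrays at 0.04, 0.01 and 0.04; for the 24 G1/S genes the MIV arrays are the lowest, and all genes tested stay near 0.

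Taken array by array, the median G2/M gene lay -0.17, -0.21 and -0.18 from its mean over the 9 arrays on the MII arrays, 0.17, 0.25 and 0.16 on the MIII arrays and 0.04, 0.01 and 0.04 on the MIV arrays, in log2 units. The 3 lines did not overlap on this measure. For the median G1/S gene the values were -0.03, 0.11 and 0.03 in MII, 0.09, 0.07 and 0.09 in MIII and -0.12, -0.06 and -0.10 in MIV, so the MIV arrays were the lowest and the MII and MIII arrays overlapped. The mean signal of a G2/M gene was highest in MIII for 18 of 25 genes, in MIV for 7 and in MII for 0, and it was lowest in MII for 21 of 25, where 28.1% of all genes tested were lowest in MII. The G1/S genes were highest in MII for 9 of 24 genes, in MIII for 10 and in MIV for 5, and 12 of 24 were lowest in MIV, against 35.3% of all genes.

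Markers of other cell types differed between the lines. Over 9 fibroblast markers the summed signal was 4899 to 5220 on the MIII arrays, against 789 to 1175 on the other arrays, and DCN, COL3A1, LUM and THY1, 4 of the 6 tested, were past 2-fold higher in MIII versus MII and lower in MIV versus MIII. Over all genes tested 11.7% and 12.7% were past 2-fold in these comparisons, in either direction. The fibroblast genes COL1A1 and FAP were not higher in MIII, and COL1A2, PDGFRA and PDGFRB, with mean signals of 26.0, 17.9 and 34.9 in MIII, were too dim to be tested. Epithelial markers summed to 115045 to 118924 on the MIII arrays, against 166060 to 173365 on the MII arrays and 166313 to 178929 on the MIV arrays, and CDH1 and EPCAM were lower in MIII. Leukocyte and endothelial markers summed to 1731 to 1987 on the MII arrays, 893 to 1102 on the MIII arrays and 717 to 782 on the MIV arrays. CD14 made up most of this sum in MII and MIII, averaging 1489.6 on the MII arrays, 594 on the MIII arrays and 323 on the MIV arrays, while PECAM1 averaged 174, 251 and 306 in the same order, and PTPRC, LYZ, CDH5, VWF and KDR were too dim to be tested. The part of these marker differences in the cell cycle genes was not tested.

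The promoters of the members were set beside these groups, because genes of each phase are known to share short elements. RefSeq promoters of GRCh38.p14, from 250 bases before to 50 bases after a transcription start, were listed for 39 of the 49 genes. Words of the CHR element, TTTGAA or TTCGAA on either strand (TTCGAA reads the same on both), were found in 14 of 20 G2/M promoters (70%), in 2 of 19 G1/S promoters (10.5%) and in 19.5% of the 27305 genes listed. Words of the E2F site, TTTGGCGC, TTTCGCGC, TTTCCCGC or TTTGCCGC on either strand, were found in 3 of 20 G2/M promoters (15%), in 11 of 19 G1/S promoters (57.9%) and in 3.99% of all genes. The word CCAAT, bound by NF-Y, was found on either strand in 17 of 20 G2/M promoters (85%), in 11 of 19 G1/S promoters (57.9%) and in 39.7% of all genes. A gene with several listed promoters counted as holding a word if any of them did. These matches describe letters in a window and show no binding.

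The following 6 RefSeq promoters, 5′ to 3′ on the strand of the gene, show how the words sit in G2/M genes that were highest in MIII or MIV (PLK1, TOP2A, CDK1) and in G1/S genes that differed in which line was high or low (MCM2, TYMS, CDC25A). Capitals mark CHR words in PLK1 and TOP2A, a CHR word and then an E2F word in CDK1, and E2F words in the other 3, and in MCM2 2 matches on opposite strands overlap. PLK1 lies at chr16:23678639-23678938 (plus strand), TOP2A at chr17:40417847-40418146 (minus strand), CDK1 at chr10:60778081-60778380 (plus strand) (the first of 2 listed promoters), MCM2 at chr3:127598161-127598460 (plus strand), TYMS at chr18:657403-657702 (plus strand) and CDC25A at chr3:48188368-48188667 (minus strand).
PLK1: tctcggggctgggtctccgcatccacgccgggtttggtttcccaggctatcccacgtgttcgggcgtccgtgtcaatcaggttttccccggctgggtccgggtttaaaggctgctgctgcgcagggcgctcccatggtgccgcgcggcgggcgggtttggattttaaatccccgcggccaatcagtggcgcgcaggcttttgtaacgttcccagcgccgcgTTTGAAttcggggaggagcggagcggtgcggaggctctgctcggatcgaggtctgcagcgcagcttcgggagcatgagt
TOP2A: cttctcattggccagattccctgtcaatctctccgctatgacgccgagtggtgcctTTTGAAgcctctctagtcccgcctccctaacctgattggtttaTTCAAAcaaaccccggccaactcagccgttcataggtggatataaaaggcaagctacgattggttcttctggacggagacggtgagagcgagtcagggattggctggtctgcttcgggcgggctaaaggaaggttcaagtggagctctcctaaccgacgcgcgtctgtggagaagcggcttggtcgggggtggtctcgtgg
CDK1: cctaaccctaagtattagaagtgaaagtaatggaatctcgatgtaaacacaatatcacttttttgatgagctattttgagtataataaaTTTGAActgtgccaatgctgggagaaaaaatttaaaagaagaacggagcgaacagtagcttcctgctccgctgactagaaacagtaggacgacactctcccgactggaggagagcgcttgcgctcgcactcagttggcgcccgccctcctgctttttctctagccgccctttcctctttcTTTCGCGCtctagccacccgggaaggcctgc
MCM2: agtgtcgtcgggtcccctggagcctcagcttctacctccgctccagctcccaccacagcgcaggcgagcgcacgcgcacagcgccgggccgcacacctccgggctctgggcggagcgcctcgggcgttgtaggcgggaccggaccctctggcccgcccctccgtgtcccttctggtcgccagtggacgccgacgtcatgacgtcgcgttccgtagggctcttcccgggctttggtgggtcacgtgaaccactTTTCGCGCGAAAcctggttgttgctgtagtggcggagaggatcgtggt
TYMS: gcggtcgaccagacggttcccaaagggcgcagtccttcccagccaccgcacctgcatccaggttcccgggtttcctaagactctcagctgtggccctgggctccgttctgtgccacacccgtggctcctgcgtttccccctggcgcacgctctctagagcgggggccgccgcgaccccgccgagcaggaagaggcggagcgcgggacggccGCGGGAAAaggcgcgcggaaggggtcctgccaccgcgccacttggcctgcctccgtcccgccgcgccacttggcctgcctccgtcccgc
CDC25A: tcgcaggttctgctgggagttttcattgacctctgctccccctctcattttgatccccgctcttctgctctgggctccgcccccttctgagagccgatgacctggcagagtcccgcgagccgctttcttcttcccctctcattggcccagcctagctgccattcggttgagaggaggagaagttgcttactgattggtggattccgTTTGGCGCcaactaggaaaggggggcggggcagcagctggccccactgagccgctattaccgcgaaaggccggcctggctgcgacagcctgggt
Counted from the transcription start, the CHR word begins at position -29 in PLK1, at -194 and -151 in TOP2A and at -161 in CDK1. The E2F word begins at position 20 in CDK1, at 3 and 7 in MCM2, at -39 in TYMS and at -44 in CDC25A. The other listed CDK1 promoter, not printed, holds 3 CHR words. The promoters of the G1/S genes CDK4 and CCNE1, also not printed, hold neither a CHR nor an E2F word.

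On the probe sets used, all 7 G1 cyclins and kinases fell in MIV versus MIII (median -0.62), and 5 fell and 2 rose in MIV versus MII (median -0.59). In MIII versus MII 4 rose and 1 fell (median 0.22), but the rises of CCND1 and CDK6 were absent on their other probe sets. Over all genes tested 25.3% rose and 26.6% fell in MIV versus MIII. In MIV versus MII 20.0% rose and 22.2% fell, and in MIII versus MII 22.9% and 24.3%. These shares also apply to the counts of the roles below. CCND1, cyclin D1, the partner of CDK4 and CDK6, read 3392, 3835 and 3536 on the MII arrays, 4524, 4298 and 4549 in MIII and 2317, 2389 and 2246 in MIV. Its 3 lines did not overlap, with MIV lowest and MIII highest. The log2 change was -0.94 ± 0.06 in MIV versus MIII (adjusted p = 1.08e-08), -0.63 ± 0.06 in MIV versus MII (adjusted p = 1.2e-06) and 0.31 ± 0.06 in MIII versus MII (adjusted p = 0.000493). On its other probe set CCND1 was -0.03 in MIII versus MII (limma adjusted p = 0.861).

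The E cyclins, which activate CDK2 at the entry to S phase, were lowest in MIV. CCNE2 read 1197, 1056 and 1065 on the MII arrays, 871, 875 and 938 in MIII and 495, 622 and 580.3 in MIV, with no overlap between any 2 lines. It fell by 0.65 ± 0.09 in MIV versus MIII (adjusted p = 5.31e-05), fell by 0.95 ± 0.09 in MIV versus MII (adjusted p = 2.46e-06) and fell by 0.30 ± 0.09 in MIII versus MII (adjusted p = 0.0182). The last of these calls was lost without MII replicate 1, MIII replicate 1 or MIII replicate 2, with limma adjusted p-values of 0.0771, 0.0546 and 0.0529. CCNE1 read 709, 765 and 785 on the MII arrays, 732, 597 and 555 in MIII and 388, 412 and 442 in MIV. Here the MIV arrays lay below all others, while MIII and MII overlapped through MIII replicate 1. CCNE1 fell by 0.57 ± 0.11 in MIV versus MIII (adjusted p = 0.000557) and fell by 0.84 ± 0.11 in MIV versus MII (adjusted p = 3.37e-05), and in MIII versus MII it was -0.26 ± 0.11 (adjusted p = 0.0632), which passed without MIII replicate 1 (adjusted p = 0.0115).

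CDC25A, the phosphatase that removes inhibitory phosphates from CDK2, read 1129.7, 1275 and 1394 on the MII arrays, 1339, 1325 and 1213 in MIII and 883, 852 and 769 in MIV. The MIV arrays lay below the others and MIII and MII overlapped. It fell by 0.62 ± 0.09 in MIV versus MIII (adjusted p = 4.45e-05) and fell by 0.59 ± 0.09 in MIV versus MII (adjusted p = 0.000114), and the change in MIII versus MII was 0.03 ± 0.09 (adjusted p = 0.797), with a 95% interval of -0.16 to 0.22.

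CDK4, a partner of cyclin D1, read 5580.4, 5482 and 5473 on the MII arrays, 9939, 9845 and 9589 in MIII and 6151, 6209.8 and 6444 in MIV. All MIII arrays lay far above the rest, and MIV lay just above MII. CDK4 rose by 0.83 ± 0.04 in MIII versus MII (adjusted p = 2.13e-09), fell by 0.64 ± 0.04 in MIV versus MIII (adjusted p = 2.7e-08) and was 0.18 ± 0.04 in MIV versus MII (adjusted p = 0.0035). CDK2, the partner of the E cyclins, read 1538, 1634 and 1556 on the MII arrays, 2740.0, 2817 and 2896 in MIII and 2226, 2411 and 2452 in MIV. MII was lowest, with no overlap between lines. CDK2 rose by 0.83 ± 0.06 in MIII versus MII (adjusted p = 5.38e-08) and by 0.58 ± 0.06 in MIV versus MII (adjusted p = 3.39e-06), and fell by 0.25 ± 0.06 in MIV versus MIII (adjusted p = 0.00259). CDK6, the other cyclin D kinase, averaged 3877 ± 207 in MII, 4525 ± 84.6 in MIII and 3023 ± 271 on the MIV arrays, each ± SD over 3 arrays. Its log2 changes were -0.58 ± 0.07 in MIV versus MIII, -0.36 ± 0.07 in MIV versus MII and 0.22 ± 0.07 in MIII versus MII, all called. None of its other probe sets was called higher in MIII versus MII, with changes between -0.50 and 0.14.

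Of the genes of the RB-E2F step, none changed in MIV versus MIII by limma (0 of 3, with 1 higher at an unadjusted p under 0.05). RB1, the pocket protein that restrains E2F, read 1795, 1753 and 1688 on the MII arrays, 1749, 1696 and 1968 in MIII and 2169, 2071 and 1845 in MIV. MIV lay above MII without overlap, and MIII overlapped both. RB1 was 0.21 ± 0.08 in MIV versus MII (adjusted p = 0.0376), a call that was lost without MII replicate 2, MII replicate 3, MIV replicate 1 or MIV replicate 2, with limma adjusted p-values between 0.074 and 0.148. It was also lost with no filter (adjusted p = 0.0521) and without the trend in the variance prior (adjusted p = 0.0793). In MIV versus MIII RB1 was 0.17 ± 0.08 (adjusted p = 0.0819), and was called with the average of its probe sets (adjusted p = 0.0418) and without MIII replicate 3 or MIV replicate 3 (adjusted p = 0.028 and 0.0254). E2F1 averaged 430.0 ± 62.2 in MII, 424 ± 39 in MIII and 427 ± 14.6 on the MIV arrays (± SD over 3 arrays), and its 3 changes lay between -0.01 and 0.01, each with an SE of 0.12. MYBL2, which encodes B-Myb, rose in MIV versus MII (0.33 ± 0.09) and in MIII versus MII (0.26 ± 0.09).

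The 10 genes of origin licensing and the replication fork did not move as a block. On the probe sets used, 5 fell and 2 rose in MIV versus MII, and 4 fell and 2 rose in MIII versus MII. In MIV versus MIII 3 fell and 0 rose (1 at an unadjusted limma p under 0.05). The shares changed in these comparisons were 70%, 60% and 30%, against 42.2%, 47.2% and 51.9% of all genes tested. The MCM2 to MCM7 genes encode the 6 subunits of the helicase that CDC6 and CDT1 load at origins. MCM2 rose by 0.72 ± 0.06 in MIII versus MII and by 0.55 ± 0.06 in MIV versus MII. In these comparisons MCM6 fell by 0.30 ± 0.05 and fell by 0.25 ± 0.05. MCM3 fell in MIV versus MII (-0.43 ± 0.06) and in MIV versus MIII (-0.29 ± 0.06), as did MCM4 (-0.26 ± 0.06 and -0.24 ± 0.06). MCM7 rose in MIV versus MII (0.18 ± 0.05) and in MIII versus MII (0.16 ± 0.05), and MCM5 lay between 0.02 and 0.12 in the 3 comparisons with no call. The other MCM7 probe set had no call there, with 0.07 and 0.08 (limma adjusted p = 0.477 and 0.426).

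The loading factor CDC6 averaged 2236 ± 145 in MII, 1743 ± 119 in MIII and 1691 ± 96 on the MIV arrays (± SD over 3 arrays), and fell in MIV versus MII (-0.40 ± 0.07) and in MIII versus MII (-0.36 ± 0.07). GINS2, a subunit of the active helicase, did likewise (-0.42 ± 0.06 and -0.33 ± 0.06). CDT1 had no call on the probe set used, and read 1294, 1893 and 1109 on the MIV arrays, the widest relative spread of any member in a line. Its other probe set rose in MIV versus MIII (0.46, limma adjusted p = 0.000995) and in MIV versus MII (0.35, adjusted p = 0.0096). PCNA, the sliding clamp of the polymerases, read 13692, 15298 and 14390.0 on the MII arrays, 13142, 12539.7 and 13304 in MIII and 12624, 13774 and 14604 in MIV. Its lines overlapped apart from MIII versus MII. The single call for PCNA was in MIII versus MII, -0.15 ± 0.06 (adjusted p = 0.0445), and it was lost without any of MII replicates 2 and 3 or MIII replicates 1, 2 and 3, with limma adjusted p-values between 0.0591 and 0.176. It was also lost with no filter, without the trend and after scaling to the same median (adjusted p = 0.0797, 0.13 and 0.132).

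Among the genes of deoxynucleotide supply, 3 of 4 rose in MIII versus MII and 3 of 4 fell in MIV versus MIII. None changed in MIV versus MII by limma on the probe sets used (0 of 4, and 0 at an unadjusted p under 0.05). In that comparison RRM2 fell on its other probe set and TYMS on a dim one (-0.99, adjusted p = 0.0148). RRM1 rose there on its other probe set (0.24, adjusted p = 0.0201). TYMS, thymidylate synthase, read 10031, 9700.4 and 10355 on the MII arrays, 17685, 17349 and 17634 in MIII and 9662, 9967 and 9156 in MIV. The MIII arrays stood far above both other lines, which overlapped. TYMS rose by 0.81 ± 0.05 in MIII versus MII (adjusted p = 4.71e-09), fell by 0.87 ± 0.05 in MIV versus MIII (adjusted p = 1.92e-09) and was -0.06 ± 0.05 in MIV versus MII (adjusted p = 0.291). RRM2, the regulated subunit of ribonucleotide reductase, read 12564, 12403 and 12873 on the MII arrays, 13999.5, 14514 and 13934 in MIII and 12099.8, 12164 and 12287 in MIV. MIII was again highest and no 2 lines overlapped, with changes on the probe set used of -0.22 ± 0.04 in MIV versus MIII (adjusted p = 0.000459) and 0.17 ± 0.04 in MIII versus MII (adjusted p = 0.00374). A second RRM2 probe set gave -0.77 in MIV versus MIII (adjusted p = 1.33e-07), -0.45 in MIV versus MII (adjusted p = 4.59e-05) and 0.33 in MIII versus MII (adjusted p = 0.000509), and the average of both fell by 0.22 in MIV versus MII (adjusted p = 0.000537). RRM1, the large subunit, rose by 0.36 ± 0.05 in MIII versus MII and fell by 0.27 ± 0.05 in MIV versus MIII, and TK1, thymidine kinase of the salvage pathway, lay between -0.04 and 0.02 in the 3 comparisons with no call. The other RRM1 probe set rose in MIII versus MII (0.33, limma adjusted p = 0.00231). It had no call in MIV versus MIII (-0.09, adjusted p = 0.343).

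**Figure D2:**
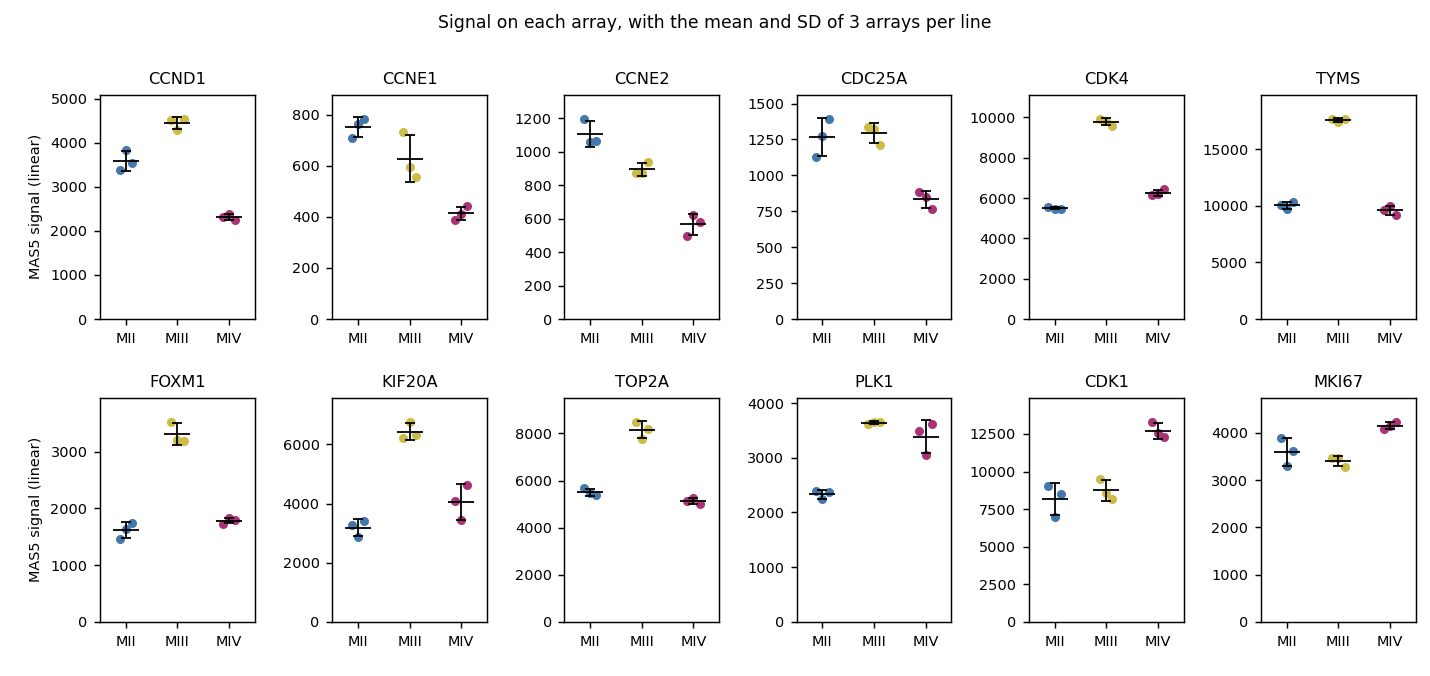
MAS5 signal (linear scale) of 12 of the genes on each array, in the order MII, MIII and MIV, with the mean and SD of 3 arrays per line. CCND1, CCNE1, CCNE2 and CDC25A are lowest in MIV, CDK4, TYMS, FOXM1, KIF20A and TOP2A are highest in MIII, and CDK1 and MKI67 are highest in MIV.

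The plot of signals by array shows these patterns beside those of the mitotic genes. Of the mitotic cyclins, CDK1 and its activators, 5 of 6 rose in MIV versus MII, 4 of 6 in MIII versus MII, and in MIV versus MIII 2 rose and 3 fell. FOXM1, a transcription factor of G2/M genes, read 1464, 1641 and 1742 on the MII arrays, 3528, 3202 and 3179 in MIII and 1733, 1829 and 1790.5 in MIV. The MIII arrays lay above both other lines, which overlapped through MII replicate 3. FOXM1 rose by 1.03 ± 0.07 in MIII versus MII (adjusted p = 4.18e-08), a 2.04-fold change, fell by 0.88 ± 0.07 in MIV versus MIII (adjusted p = 1.84e-07) and was 0.14 ± 0.07 in MIV versus MII (adjusted p = 0.124). It lost the 2-fold mark without MII replicate 1 (0.96) or MIII replicate 1 (0.98), with the adjusted p still under 0.05.

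CDK1, the kinase that drives entry into mitosis, read 9049, 6981 and 8502 on the MII arrays, 9491, 8587 and 8159 in MIII and 13324, 12538 and 12284 in MIV. Only the MIV arrays stood apart. CDK1 rose by 0.54 ± 0.08 in MIV versus MIII (adjusted p = 8.82e-05) and by 0.64 ± 0.08 in MIV versus MII (adjusted p = 3.02e-05), and was 0.10 ± 0.08 in MIII versus MII (adjusted p = 0.34). In MIII versus MII CDK1 rose on 2 other probe sets, by 0.29 (adjusted p = 0.00533) and by 0.31 (adjusted p = 0.000563), and on the average of its probe sets by 0.19 (adjusted p = 0.0058). CDC25C, the phosphatase that activates CDK1, read 1002, 794 and 923 on the MII arrays, 1053, 1028 and 986 in MIII and 1251, 1337 and 1559 in MIV. It was highest in MIV too, with all MIV arrays above the rest, and rose by 0.42 ± 0.10 against MIII (adjusted p = 0.0024) and by 0.60 ± 0.10 against MII (adjusted p = 0.000232). In MIII versus MII it was 0.18 ± 0.10 (adjusted p = 0.16), and on the average of its probe sets it rose by 0.25 (adjusted p = 0.0228).

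The B cyclins were highest in MIII. CCNB1, cyclin B1, the partner of CDK1, read 9562, 9606 and 10945 on the MII arrays, 13638, 13257 and 13712 in MIII and 12004, 11867 and 11684 in MIV. No 2 lines overlapped. CCNB1 rose by 0.43 ± 0.05 in MIII versus MII (adjusted p = 1.15e-05) and by 0.24 ± 0.05 in MIV versus MII (adjusted p = 0.00217), and fell by 0.19 ± 0.05 in MIV versus MIII (adjusted p = 0.00756). On its other probe set the call in MIV versus MII was lost (0.083, adjusted p = 0.22), and the change in MIV versus MIII was -0.42. CCNB2, cyclin B2, gave 0.56 ± 0.05, 0.41 ± 0.05 and -0.15 ± 0.05 in the same comparisons, all called, and CCNA2, cyclin A2, rose by 0.20 ± 0.06 in both MIII and MIV versus MII.

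Of the mitotic kinases and checkpoint genes, 4 of 6 rose in MIII versus MII, 3 of 6 in MIV versus MII, and in MIV versus MIII 1 rose and 1 fell. The shares changed were 66.7%, 50% and 33.3%, against 47.2%, 42.2% and 51.9% of all genes tested. PLK1, a kinase that acts throughout mitosis, rose by 0.64 ± 0.06 in MIII versus MII and by 0.53 ± 0.06 in MIV versus MII. AURKA, the kinase of the spindle poles, read 4833, 4631 and 4881 on the MII arrays, 5300.5, 5192 and 5802 in MIII and 5024, 5169 and 4808 in MIV. MIII lay above MII without overlap, by 0.18 ± 0.05 (adjusted p = 0.0139), a call lost without MII replicate 2 or MIII replicate 3, with limma adjusted p-values of 0.0559 and 0.0727, and on its suffix-free probe set (0.46, adjusted p = 0.238). In MIV versus MIII AURKA was -0.12 ± 0.05 (adjusted p = 0.0884), and it fell after quantile or cyclic loess normalization (adjusted p = 0.0299 and 0.0215) and on the average of its probe sets or the suffix-free one (adjusted p = 0.0142 and 0.0431). BIRC5, which encodes survivin of the chromosomal passenger complex, rose in MIII versus MII (0.49 ± 0.05) and fell in MIV versus MIII (-0.43 ± 0.05), while AURKB, the kinase of that complex, rose in MIV versus MIII (0.38 ± 0.07) and in MIV versus MII (0.36 ± 0.07). BUB1, a spindle checkpoint kinase, rose in MIII and in MIV versus MII (0.24 ± 0.06 and 0.19 ± 0.06), and BUB1B lay between 0.03 and 0.09 with no call.

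CDC20, which activates the anaphase-promoting complex, read 6831, 6196 and 6502 on the MII arrays, 9229, 9025 and 8488 in MIII and 7672, 7368 and 7488 in MIV. No 2 lines overlapped, with MIII highest and MII lowest. CDC20 rose by 0.45 ± 0.05 in MIII versus MII (adjusted p = 5.29e-06) and by 0.21 ± 0.05 in MIV versus MII (adjusted p = 0.00489), and fell by 0.25 ± 0.05 in MIV versus MIII (adjusted p = 0.00102). UBE2C, the ubiquitin-conjugating enzyme of the complex, changed in the same 3 directions (0.57 ± 0.07, 0.32 ± 0.07 and -0.25 ± 0.07).

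Among the kinesins and spindle assembly genes, 4 of 6 rose in MIII versus MII, 3 of 6 rose in MIV versus MII and 3 of 6 fell in MIV versus MIII. The shares changed were 66.7%, 50% and 50%, against 47.2%, 42.2% and 51.9% of all genes tested. KIF20A, a kinesin needed for cytokinesis, read 3265, 2865 and 3409 on the MII arrays, 6231, 6769 and 6300.0 in MIII and 4101, 3436 and 4618 in MIV. MIII lay above all others, and MIV above MII with little room between MIV replicate 2 and MII replicate 3. KIF20A rose by 1.02 ± 0.09 in MIII versus MII (adjusted p = 6.84e-07), a 2.02-fold change, by 0.34 ± 0.09 in MIV versus MII (adjusted p = 0.00912), and fell by 0.67 ± 0.09 in MIV versus MIII (adjusted p = 3.24e-05). The 2-fold mark was lost without MII replicate 2 (0.94) or MIII replicate 2 (0.98).

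NUSAP1, which binds spindle microtubules, read 5039.8, 5034 and 5346 on the MII arrays, 6857, 7547 and 7502 in MIII and 5996, 5865 and 5816 in MIV. No 2 lines overlapped and MIII was highest. NUSAP1 rose by 0.50 ± 0.05 in MIII versus MII (adjusted p = 1.93e-06) and by 0.20 ± 0.05 in MIV versus MII (adjusted p = 0.00686), and fell by 0.31 ± 0.05 in MIV versus MIII (adjusted p = 0.000176). On its other probe set NUSAP1 had no call in MIV versus MII (-0.015, limma adjusted p = 0.929). There it rose in MIII versus MII (0.29) and fell in MIV versus MIII (-0.30). TPX2, an activator of AURKA, rose in MIII versus MII (0.38 ± 0.06) and fell in MIV versus MIII (-0.26 ± 0.06). KIF2C, a kinesin that depolymerises microtubules, rose in MIV versus MII (0.50 ± 0.05) and in MIII versus MII (0.42 ± 0.05). KIF11, the motor of spindle bipolarity, and KIF23, a motor of cytokinesis, had no call on the probe sets used. The limma adjusted p-values for KIF11 were 0.0506 in MIII versus MII and 0.0743 in MIV versus MII. KIF23 rose in MIII versus MII on its other probe set (0.53, adjusted p = 0.0426).

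Of the centromere and chromosome structure genes, 4 of 5 rose in MIII versus MII and 4 of 5 fell in MIV versus MIII. TOP2A, the topoisomerase that untangles chromosomes, read 5671, 5480.1 and 5383 on the MII arrays, 8505, 7776 and 8188 in MIII and 5118, 5270.2 and 4999.7 in MIV. MIII was highest and MIV lay just below MII. TOP2A rose by 0.56 ± 0.05 in MIII versus MII (adjusted p = 4.24e-07), fell by 0.67 ± 0.05 in MIV versus MIII (adjusted p = 7.09e-08) and was -0.10 ± 0.05 in MIV versus MII (adjusted p = 0.112). That last change was called after quantile normalization (-0.15, adjusted p = 0.0266) and after cyclic loess normalization (-0.14, adjusted p = 0.0348). Its other probe sets had no call in MIV versus MII and differed in sign, with 0.14 and -0.50 (limma adjusted p = 0.0905 and 0.39). CENPF, a kinetochore protein, read 2528, 2209 and 2539 on the MII arrays, 4020.2, 4296 and 3974 in MIII and 3295, 3064 and 3022 in MIV. No 2 lines overlapped, with MII lowest. CENPF rose by 0.75 ± 0.07 in MIII versus MII (adjusted p = 4.03e-07) and by 0.37 ± 0.07 in MIV versus MII (adjusted p = 0.000493), and fell by 0.39 ± 0.07 in MIV versus MIII (adjusted p = 0.000199). Of its other probe sets, that without a suffix had no call in MIV versus MII (0.45, adjusted p = 0.0842) or in MIV versus MIII (-0.20, adjusted p = 0.428), and another gave -0.035 in MIV versus MII (adjusted p = 0.864). CENPA, the centromeric histone H3, and CENPE, a kinetochore motor, rose in MIII versus MII (0.40 ± 0.09 and 0.30 ± 0.07) and fell in MIV versus MIII (-0.24 ± 0.09 and -0.24 ± 0.07).

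MKI67, the proliferation marker Ki-67, on the probe set used moved otherwise than the other genes of the role, while 2 of its other probe sets rose in MIII versus MII, as described further on. Mean signals of MKI67 were 3603 ± 295 in MII, 3405 ± 108 in MIII and 4157 ± 81.3 on the MIV arrays, each ± SD over 3 arrays. It rose in MIV versus MIII (0.29 ± 0.06, adjusted p = 0.0013) and in MIV versus MII (0.21 ± 0.06, adjusted p = 0.0142), with -0.08 ± 0.06 in MIII versus MII (adjusted p = 0.32).

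The plot of log2 changes by role sets all 49 genes side by side, and shows the G1 cyclins and kinases lower in MIV versus MIII, and no G2/M gene lower in either MIV or MIII versus MII on the values as deposited.

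**Figure D3:**
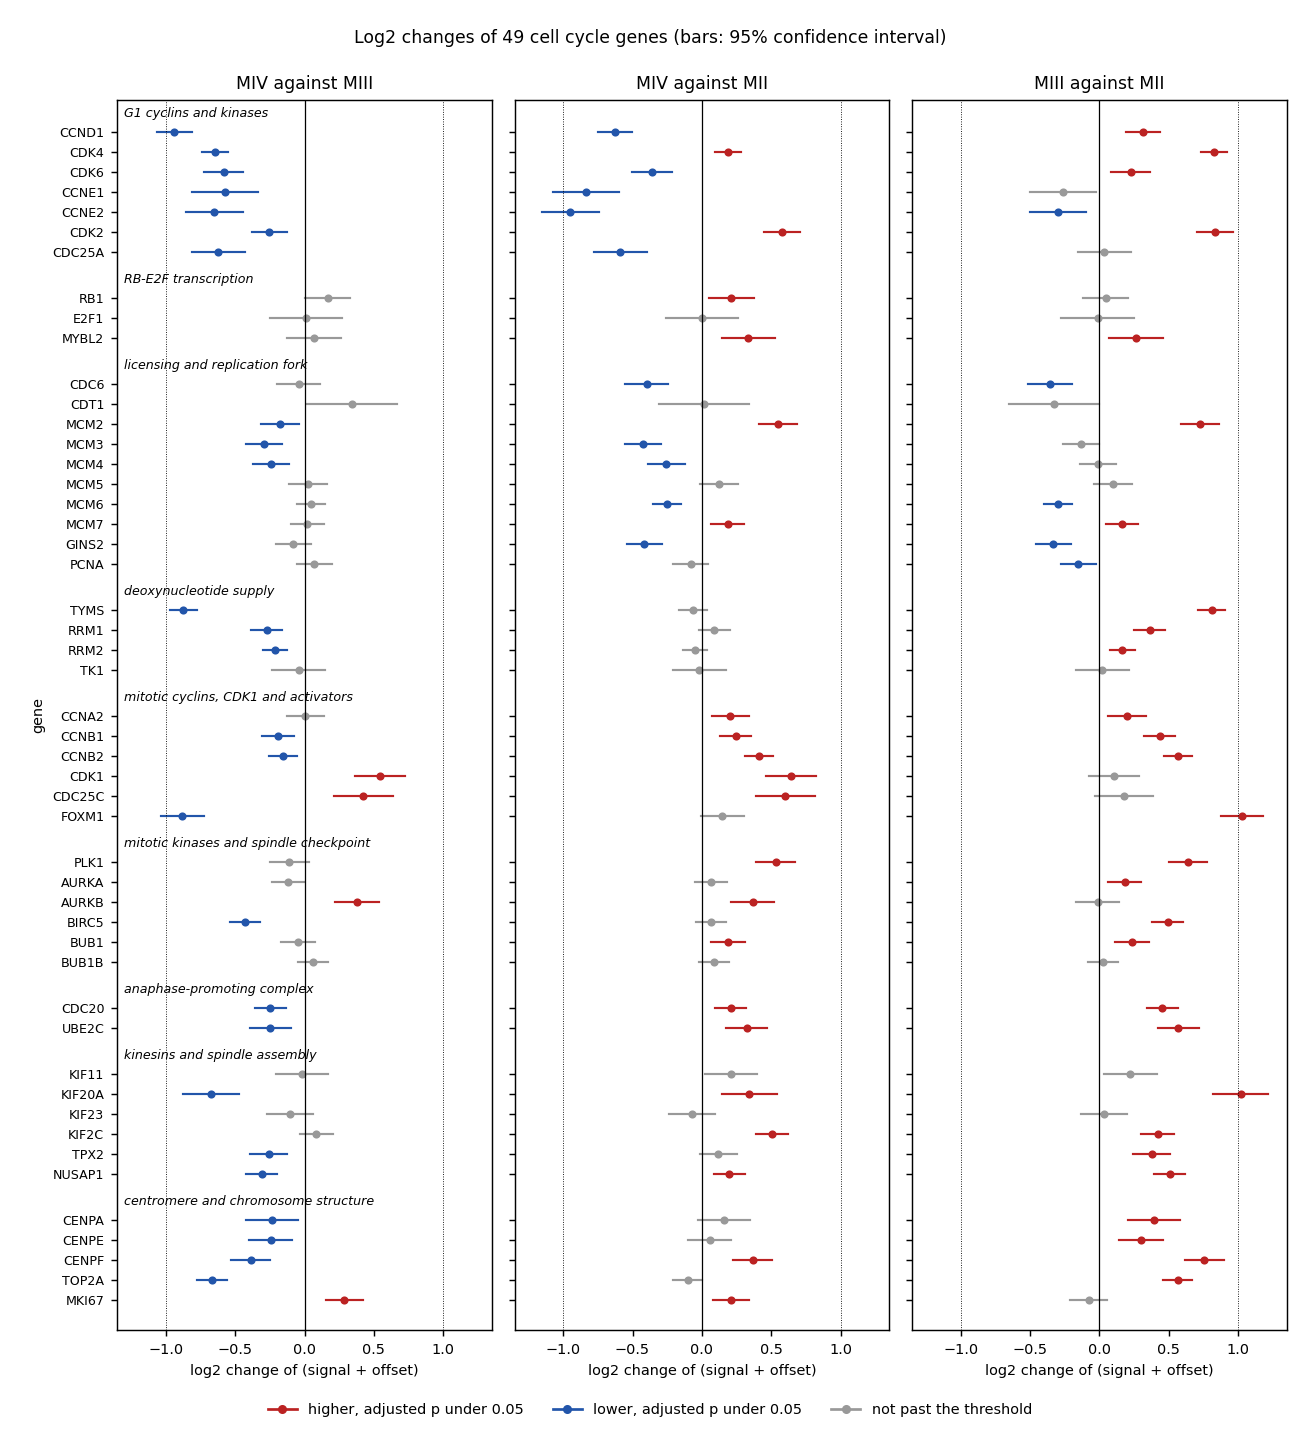
Log2 change with its 95% confidence interval for all 49 genes, grouped by role, in MIV versus MIII, MIV versus MII and MIII versus MII; dotted lines mark 2-fold. Higher values are red and lower values blue where the limma adjusted p was under 0.05, and the 7 G1 cyclins and kinases are all blue in MIV versus MIII while no G2/M gene is blue in the other 2 comparisons.

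The value of a gene depends in part on its probe set. The 49 genes had 109 probe sets, and 34 genes had more than 1, which were tested in a separate limma fit of all probe sets. Calls of the probe set used were absent on 14 other probe sets in MIII versus MII, 12 in MIV versus MII and 10 in MIV versus MIII. They were shared in direction by 15, 22 and 23 others, and 7, 4 and 3 others had a call that the probe set used lacked. MKI67 had 4 probe sets, which did not move together. A second MKI67 probe set fell by 0.34 in MIV versus MIII (adjusted p = 0.00843) and rose by 0.70 in MIII versus MII (adjusted p = 3.28e-05), and another rose by 0.53 in MIII versus MII (adjusted p = 7.78e-05). In 3 other genes a dimmer probe set moved against the brighter probe set used. AURKB had such a probe set (mean signal 139) that fell by 0.93 in MIV versus MIII (adjusted p = 0.00476), TYMS had a probe set (mean signal 74.6) that fell by 1.24 in MIII versus MII (adjusted p = 0.00294), and CDK6 had a probe set (mean signal 230.1) that fell by 0.50 in MIII versus MII (adjusted p = 0.0227).

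For 4 genes another probe set passed 2-fold in the direction of the one used. A second TYMS probe set changed by -1.21 in MIV versus MIII and by 1.06 in MIII versus MII, and a second CCNE2 probe set by -1.20 in MIV versus MII. A second CDC25C probe set changed by 1.05 in MIV versus MII, and a second TOP2A probe set by -1.39 in MIV versus MIII.

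Several members lie on chromosomes whose median log2 change was shifted between the lines, by chromosomes of GRCh38.p14. On chromosome 12 the median log2 change of 687 genes was 0.41 in MIII versus MII and -0.41 in MIV versus MIII. FOXM1, CDK2 and CDK4 lie there, and in MIII versus MII they changed by 1.03, 0.83 and 0.83 while their 20 nearest tested neighbours had medians of 0.51, 0.30 and 0.44. In MIV versus MIII the changes were -0.88 for FOXM1, -0.25 for CDK2 and -0.64 for CDK4, against -0.48, -0.23 and -0.29 for the neighbours. On chromosome 10 the median of 502 genes was 0.34 in MIV versus MIII and 0.26 in MIV versus MII, and it holds CDK1, MKI67 and KIF11. CDK1 changed by 0.54 and 0.64 in these comparisons, against 0.37 and 0.24 for its neighbours, and MKI67 by 0.29 and 0.21, against 0.43 and 0.19. KIF11 changed by -0.02 and 0.21, against 0.31 and 0.22 for its neighbours. On chromosome 3 the median of 704 genes was 0.14 in MIII versus MII and 0.19 in MIV versus MII, and MCM2 changed by 0.72 and 0.55 there, against 0.26 and 0.30 for its neighbours. CDC25A, also on chromosome 3, changed by 0.03 and -0.59, against -0.12 and -0.06 for its neighbours, so the shift was not even along the chromosome. The medians of chromosomes 16 and 19 shifted by less, chromosome 19 by -0.16 in MIV versus MIII and -0.20 in MIV versus MII, and chromosome 16 by -0.11 against MII in both MIII and MIV. CCNE1 lies on chromosome 19, where its neighbours had medians of 0.13 in MIV versus MIII and -0.07 in MIV versus MII. GINS2, CDT1 and PLK1 lie on chromosome 16. In MIII versus MII they changed by -0.33, -0.33 and 0.64, against -0.29, -0.27 and -0.10 for their neighbours. In MIV versus MII they changed by -0.42, 0.02 and 0.53, against -0.22, -0.11 and -0.08. The part of these shifts in the members' changes was not tested.

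Without the members on chromosomes with a median shift over 0.1 in that comparison, 16 of 23 G2/M genes rose and 0 fell in MIII versus MII, with a median of 0.38. In MIV versus MII 12 of 21 rose and 0 fell, with a median of 0.20. This way of counting was added after the data had been seen.

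**Figure D4:**
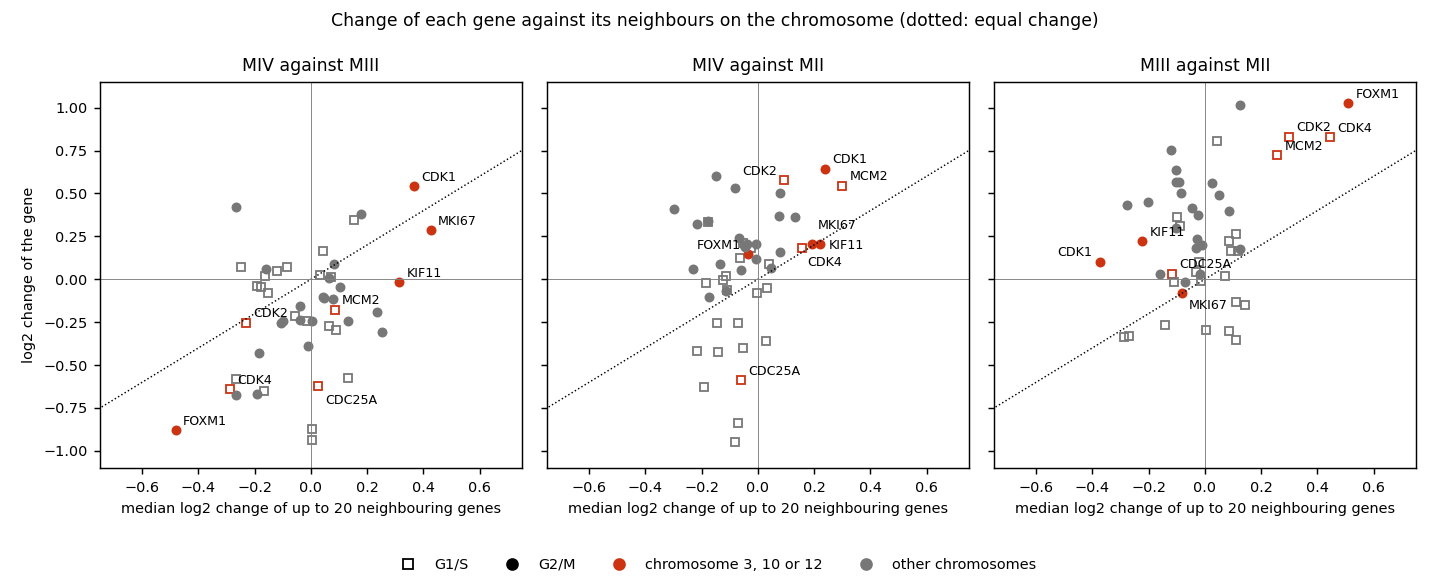
Log2 change of each of the 49 genes (vertical) against the median log2 change of up to 20 nearest tested neighbours on the chromosome (horizontal), per comparison, with squares for G1/S and circles for G2/M genes; the dotted line marks equal change. The named genes lie on chromosomes 3, 10 and 12, and FOXM1, CDK2, CDK4 and MCM2 lie above their neighbours in MIII versus MII, where KIF20A, at 1.02, has neighbours at 0.12.

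The plot of neighbours also shows members with large changes outside those chromosomes. KIF20A, on chromosome 5, rose by 1.02 in MIII versus MII while its neighbours had a median of 0.12. In MIV versus MIII KIF20A fell by 0.67 and its neighbours had a median of -0.27. CCND1, on chromosome 11, fell by 0.94 in MIV versus MIII and its neighbours had a median of 0.003, and TYMS, on chromosome 18, fell by 0.87 with a median of 0.0054 over 13 neighbours. Other members had neighbours that moved in the same direction. In MIV versus MIII CDK6 changed by -0.58, TOP2A by -0.67, BIRC5 by -0.43 and AURKB by 0.38. Their neighbours had medians of -0.27, -0.19, -0.19 and 0.18.

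Other genes of the same processes were counted in lists chosen with earlier results known. Of 74 other mitosis genes, 39 rose and 2 fell in MIII versus MII (median 0.25), 34 rose and 3 fell in MIV versus MII (median 0.18), and 16 rose and 22 fell in MIV versus MIII (median -0.07). Those past 2-fold were the condensin subunit NCAPD2 (1.14 ± 0.07), TROAP (1.14 ± 0.08) and PIMREG (1.09 ± 0.09) in MIII versus MII, the abscission gene CEP55 in MIV versus MII (1.06 ± 0.07) and the centromere gene CENPI in MIV versus MIII (1.01 ± 0.15). NCAPD2 and TROAP lie on chromosome 12 and CEP55 on chromosome 10. Of the list 55.4% changed in MIII versus MII, 50% in MIV versus MII and 51.4% in MIV versus MIII. Over all genes tested the shares were 47.2%, 42.2% and 51.9%, with 22.9%, 20.0% and 25.3% higher.

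Of 55 other replication genes, 11 rose and 5 fell in MIII versus MII, 7 rose and 13 fell in MIV versus MII, and 11 rose and 18 fell in MIV versus MIII, with medians of 0.06, -0.04 and -0.09. The shares changed were 29.1%, 36.4% and 52.7%, against 47.2%, 42.2% and 51.9% of all genes tested. TIMELESS, a fork protection gene on chromosome 12, fell by 1.11 ± 0.06 in MIV versus MIII and was the only gene of this list past 2-fold.

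Of 24 other G1 control genes, 6 rose and 6 fell in MIII versus MII, 7 rose and 8 fell in MIV versus MII, and 8 rose and 7 fell in MIV versus MIII, with medians of 0.01, -0.07 and -0.07. The shares changed were 50%, 62.5% and 62.5%, against 47.2%, 42.2% and 51.9% of all genes tested. CCND2, cyclin D2, read 51.9, 55.7 and 32.8 on the MII arrays, 1181, 1351 and 1236 in MIII and 3, 18.7 and 36.2 in MIV. The MIII arrays were well above both other lines, whose arrays all lay below the pooled median signal of 69.3. CCND2 rose in MIII versus MII (adjusted p = 3.55e-08) and fell in MIV versus MIII (adjusted p = 4.61e-09), and no fold is given, since its size is set by the offset. CCND2 lies on chromosome 12, as FOXM1 does. E2F3 fell by 1.04 ± 0.13 in MIV versus MIII and E2F2 by 1.13 ± 0.13 in MIV versus MII, where E2F7, a repressor of the family, and TFDP2, a dimer partner, rose by 1.13 ± 0.06 and 1.18 ± 0.09.

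Of the inhibitors of cyclin-dependent kinases, 5 of 7 listed were tested, of which 1 rose and 3 fell in MIV versus MIII, 0 rose and 1 fell in MIV versus MII, and 2 rose and 1 fell in MIII versus MII. The shares changed were 80%, 20% and 60%, against 51.9%, 42.2% and 47.2% of all genes tested. CDKN1A, which encodes p21, read 8178, 7692 and 7979 on the MII arrays, 6673, 5978 and 6552 in MIII and 1544, 1449 and 1468 in MIV. All MIV arrays lay far below the other lines. CDKN1A fell by 2.09 ± 0.06 in MIV versus MIII (adjusted p = 1.83e-12) and fell by 2.40 ± 0.06 in MIV versus MII (adjusted p = 1.1e-12), and was -0.31 ± 0.06 in MIII versus MII (adjusted p = 0.000356). CDKN1C, which encodes p57, rose by 1.25 ± 0.22 in MIII versus MII (adjusted p = 0.000295), with mean signals of 283 in MIII and 107 in MII.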

How the data were processed

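Biotin-labelled cRNA made from total RNA of the 3 lines was hybridised to Affymetrix arrays, with 3 arrays a line. The deposited intensity values are 1 MAS5 signal per probe set and array, per the submitters' processing notes, on a linear scale. Neither a software version nor detection calls are given in the sources used here. The 54675 probe sets include 62 controls, 41091 with 1 annotated gene, 1801 with several and 11721 with none, and only those with 1 gene were named. Gene numbers of 41037 probe sets matched a GRCh38.p14 table.

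Signals were tested as log2(signal + 18.3), the offset being the pooled 25th percentile. Of several probe sets of a gene, that with the highest mean was used, which gave 19775 genes, and 12594 were kept with at least 3 of 9 arrays over the pooled median of 69.3. All 9 arrays entered 1 group-means model (limma 3.58.1 in R 4.3.3, variance prior with a trend on intensity, 6 residual degrees of freedom). The Benjamini-Hochberg adjustment ran over the 12594 genes. Errors are SDs over 3 arrays for signals and standard errors for log2 changes (median 0.11 over all genes), and the number of arrays limits the precision. The fit was tested on simulated data.

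The members and the other gene lists were chosen with earlier results of these data known. Values on every array are given for members past 2-fold, for the 6 largest changes in each comparison, and for the member with the highest mean signal of each role. Of the other lists, up to 3 genes past 2-fold with the largest change are named, and CCND2 and CDKN1A were given by array after their values were seen. Marker genes were named after their values were seen. Other probe sets are described where they changed against the one used or changed a 2-fold call, and for some members where a call at the adjusted p differed. MKI67 and members named without values by array were described to account for the whole list.

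Alternatives were another offset, normalization, filter, variance prior or choice of probe set, the replicate number as a block, a fit of the compared lines alone, and leaving out each array. The replicate numbers did not pair the arrays, since same-numbered arrays of different lines deviated with correlations of -0.04 to 0.04. The counts outside the shifted chromosomes were added after the data had been seen.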

Additional observations from a re-analysis of the deposited data

How the results depend on the processing

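The medians of both phases kept their sign in each comparison under every alternative run, and the G1/S median in MIII versus MII, 0.04, lay between 0.03 and 0.08. In MIV versus MIII the G2/M median was -0.21 after quantile normalization and the G1/S median -0.23 after cyclic loess normalization. In MIV versus MII the G2/M median was 0.17 after cyclic loess normalization and 0.25 with the same median over the tested genes. Averaging each gene's probe sets gave a G1/S median of -0.14 in MIV versus MII and 1 member, CCNE2, past 2-fold. With probe sets without a suffix, which cover 38 members, 2 were higher in MIV versus MIII (G1/S median -0.25), 13 were higher in MIV versus MII (G1/S median -0.33), and in MIII versus MII 1 was past 2-fold, as FOXM1 has no such probe set, with a G2/M median of 0.50. Outside the shifted chromosomes, an alternative chosen after seeing the data, 2 members were higher in MIV versus MIII (G1/S median -0.083). Leaving out each array in turn gave 1 to 2 members past 2-fold and 3 to 6 lower in MIII versus MII, where 3 were lower without MIII replicate 2, and 0 to 1 past 2-fold in MIV versus MII. Calls of single members were followed for the 20 members given by array. Of their 1248 values under alternatives, 24 lost and 14 gained the call and 1210 kept their side of the threshold and direction. The median shift of all genes stayed within 0.04.

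With the replicate block, 29 members were higher and 5 lower in MIII versus MII, 21 and 10 in MIV versus MII, and 5 and 26 in MIV versus MIII, and RB1 lost its call in MIV versus MII (adjusted p = 0.0508). With 3 arrays a line an exact permutation test of a single value cannot go below 0.1. Harvest density and growth rate of the cultures were not analysed here.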
